A study of Mus musculus with 2 samples.

Results

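Cycling immature neutrophils of mouse bone marrow were chosen by their own transcripts, as cells in which secondary granule genes and cell cycle genes were read together. A cell was a member when Ngp, Camp and Ltf made up at least 1% of its counts and at least 2 of the 6 cycle genes Mki67, Top2a, Ube2c, Cenpf, Birc5 and Cdk1 had counts. Cxcr2, Csf1r, Cd79a and Cd3e, which mark mature neutrophils, monocytes, B cells and T cells, each had to be at 0. Of 28382 kept cells 3047 met the rule, 1981 of 15579 in the T1D library and 1066 of 12803 in the control library. The T1D library came from C57/BL6 mice that received streptozotocin, which kills pancreatic beta cells, the source of insulin, and had high blood sugar. The control library came from C57/BL6 mice that received sodium citrate solution, with normal blood sugar. Both were prepared from the marrow of femurs and tibias with the Singleron GEXSCOPE single-cell RNA kit. How many mice each library pooled is not given in the sources used here. With 1 library per group, nothing between T1D and control has a replicate check, so no test was made, and every interval below is a 95% interval that covers counting error only.

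Neutrophils are made in the marrow from progenitors that first fill primary granules with myeloperoxidase and serine proteases. They then fill secondary granules with lactoferrin, cathelicidin and related antimicrobial proteins, and divide for the last time in the early part of this second phase. After leaving the cell cycle they make gelatinase-rich tertiary granules, segment their nucleus and gain the receptors with which they enter the blood. A cell that is read with secondary granule and mitotic transcripts at once is therefore close to the stage called the myelocyte.

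The members held 7668395 counts in T1D and 5543296 in control. A member had a median of 3434 counts and 1046 genes in T1D, against 4745.5 counts and 1312 genes in control. Totals of members ran between 1372 and 17169 counts in T1D and between 1908 and 29417 in control. The median share of ribosomal RNA among a member's counts was 37.1% in T1D and 33.9% in control. The libraries shared 253 barcodes, and 5 barcodes were members in both. Without the shared barcodes the members made up 12.7% of T1D and 8.35% of control cells, close to the shares given below.

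The given markers were all present in both libraries. Levels are CPM, the counts of a gene in the summed members of a library scaled to the same library total. Over the members, Camp, the cathelicidin gene, stood at 33508 CPM in T1D and 39514 CPM in control. Ngp, which encodes neutrophilic granule protein, had 29215 CPM in T1D and 38325 CPM in control. Ltf, the lactoferrin gene, had 8360 CPM in T1D and 10637 CPM in control. Fcnb, which encodes the lectin ficolin B and was no part of the rule, had 484 CPM in T1D and 568 CPM in control. In immature neutrophils that met the same granule and exclusion rule but had no count for any cycle gene, Fcnb stood at only 78.0 CPM in T1D and 114 CPM in control. Ube2c, the ubiquitin-conjugating enzyme of the anaphase-promoting complex, had 605 CPM in T1D and 554 CPM in control, and Cenpf, a kinetochore protein, had 465 and 397 CPM. Mki67 had 2134 CPM in T1D and 2434 CPM in control, and Top2a, which untangles replicated DNA, 1476 and 1565 CPM. Birc5 stood at 252 CPM in T1D and 230 CPM in control, and Cdk1, the mitotic kinase, at 109 and 124 CPM. These genes chose the cells, so their levels describe the choice. The name fitted the given markers in both libraries, of which Fcnb alone was no part of the rule. Primary granule genes were present in part of the cells: Mpo, Elane and Prtn3 together reached 1% of counts in 5.81% of T1D members and 3.85% of control members. Counts for 2 or more of 8 mature neutrophil markers, with Cxcr2 at 0 by rule, were present in 49.9% of T1D and 47.4% of control members.

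Many cells lay near the thresholds. With a granule share of 1 to 1.5% there were 82 T1D and 16 control members, and just outside, at 0.5 to 1% with all else met, 120 T1D and 26 control cells. Exactly 2 of the 6 cycle genes were read in 474 T1D members and 183 control members, and 690 T1D and 314 control cells failed only by having 1. Before the exclusions 3401 T1D and 1941 control cells passed, and Cxcr2 counts were present in 38.9% of these in T1D and 37.3% in control. The exclusion on Cd79a was uneven, with Cd79a counts in 27 of these cells in T1D and 175 in control. Csf1r counts were present in 144 of them in T1D and 101 in control, and Cd3e counts in 19 and 10. The granule genes also appeared in cells that should lack them. Cells with Cd79a counts had a median granule share of 0.332% in T1D and 0.112% in control, at median totals of 2490 and 3733 counts, and 29.9% of them in T1D and 23.0% in control reached the 1% of the rule. Cells with Cd3e counts had median granule shares of 0.292% in T1D and 0.101% in control.

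Promoters of 4 marker genes, a pair from each program of the rule and of the given markers, show the sequence context of the cells' defining genes. The windows run from 250 bases before to 50 bases after the transcription start, in RefSeq on build GRCm38.p6, written on the strand of the gene. Capitals mark matches on either strand to the cell cycle genes homology region (TTTGAA or TTCGAA), to CCAAT, to E2F sites (TTTGGCGC, TTTCCCGC, TTTCGCGC or TTTGCCGC) and to the C/EBP half-palindrome TTGCNNAA. The first pair are cycle genes, Ube2c at chr2:164769679-164769978 on the plus strand and Cdk1 at chr10:69352863-69353162 on the minus strand. The second pair are granule genes, Ngp at chr9:110419558-110419857 on the plus strand and Fcnb at chr2:28084829-28085128 on the minus strand.
Ube2c: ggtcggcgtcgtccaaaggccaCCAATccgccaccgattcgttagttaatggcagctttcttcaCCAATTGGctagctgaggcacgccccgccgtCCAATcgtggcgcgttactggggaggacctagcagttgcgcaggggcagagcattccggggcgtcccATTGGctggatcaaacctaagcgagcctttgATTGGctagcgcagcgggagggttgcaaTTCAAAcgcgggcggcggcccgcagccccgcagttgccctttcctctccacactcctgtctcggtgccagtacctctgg
Cdk1: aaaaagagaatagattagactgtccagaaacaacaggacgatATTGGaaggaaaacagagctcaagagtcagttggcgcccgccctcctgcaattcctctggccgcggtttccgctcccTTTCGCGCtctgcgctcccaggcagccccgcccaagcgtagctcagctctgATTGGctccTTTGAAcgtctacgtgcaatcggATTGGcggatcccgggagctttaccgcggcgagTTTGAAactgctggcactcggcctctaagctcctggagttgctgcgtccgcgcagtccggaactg
Ngp: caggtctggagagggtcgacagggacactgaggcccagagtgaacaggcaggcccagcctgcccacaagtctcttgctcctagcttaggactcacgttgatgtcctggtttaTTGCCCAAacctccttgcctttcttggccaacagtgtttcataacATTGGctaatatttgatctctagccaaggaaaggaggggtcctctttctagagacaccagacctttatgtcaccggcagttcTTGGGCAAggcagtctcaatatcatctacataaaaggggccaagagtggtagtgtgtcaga
Fcnb: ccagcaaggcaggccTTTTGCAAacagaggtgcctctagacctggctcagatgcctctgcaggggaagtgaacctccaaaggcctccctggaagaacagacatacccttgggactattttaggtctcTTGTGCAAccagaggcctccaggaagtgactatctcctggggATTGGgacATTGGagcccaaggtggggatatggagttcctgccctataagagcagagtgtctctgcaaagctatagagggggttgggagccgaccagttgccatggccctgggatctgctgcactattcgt
The Ube2c window held 6 CCAAT matches, a pair of them overlapping as CCAATTGG, and 1 homology region match. The Cdk1 window held 3 CCAAT, 2 homology region and 1 E2F match, and no C/EBP match. Ngp held 2 C/EBP matches and 1 CCAAT match, and Fcnb 2 of each. Of the promoters of the 6 cycle genes 5 held the homology region, all but that of Birc5, and 2 of the 3 granule gene promoters held the C/EBP match, all but that of Camp. Among all 32851 promoter windows the homology region was found in 19.2%, CCAAT in 37.4%, an E2F site in 2.26% and the C/EBP match in 10.8%.

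The same motifs were counted over the lists used below. Of 37 windows that matched 34 genes of G2 and mitosis, 30 held the homology region and 28 held CCAAT, and none held an E2F or a C/EBP match. Of 16 windows of the replication licensing genes, 8 held an E2F site and 7 the homology region. Of 25 windows of genes of nucleotide and DNA synthesis, 6 held an E2F site and 3 the homology region. Of 18 windows of secondary granule genes beyond the rule, 4 held the C/EBP match, and of 13 windows of primary granule genes, 3. A match is a run of letters in a window, and whether a factor binds there was not measured.

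Cycling immature neutrophils made up 12.7% of kept cells in T1D (12.2 to 13.2%) and 8.33% in control (7.85 to 8.82%). The ratio was 1.53 (1.42 to 1.65). Both shares are of all kept cells, of which 264 of 15579 in T1D and 1931 of 12803 in control had counts for the B cell gene Cd79a. How far the ratio follows from the numbers of other cell types was not tested. The higher share was that of immature neutrophils as a whole, which by the granule and exclusion rule alone made up 25.1% of T1D cells and 16.7% of control cells. Within them the cycling fraction was 50.7% in T1D (49.1 to 52.2%) and 49.8% in control (47.7 to 51.9%), a ratio of 1.02 (0.944 to 1.10). Immature neutrophils with none of the cycle genes made up 7.95% of T1D and 5.94% of control cells. Primary granule progenitors, with Mpo, Elane and Prtn3 at 1% of counts or more and the granule share under 1%, made up 2.02% of T1D and 1.25% of control cells. Every cell was then thinned to 1000 counts before the rule was applied, which left out no cell. Members then made up 13.1% of T1D and 9.55% of control cells, and 32.9% of immature neutrophils in T1D against 30.9% in control. Of the members found after thinning, 1460 of 2034 in T1D and 811 of 1223 in control had been members before it. The ratio also depended on the cells counted. It was 1.86 among cells of 3000 to 5000 counts, 1.28 with a granule share of at least 5% and 1.25 without members that had counts for the monocyte genes F13a1, Ccr2, Fn1 or Ms4a6c.

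**Figure D1:**
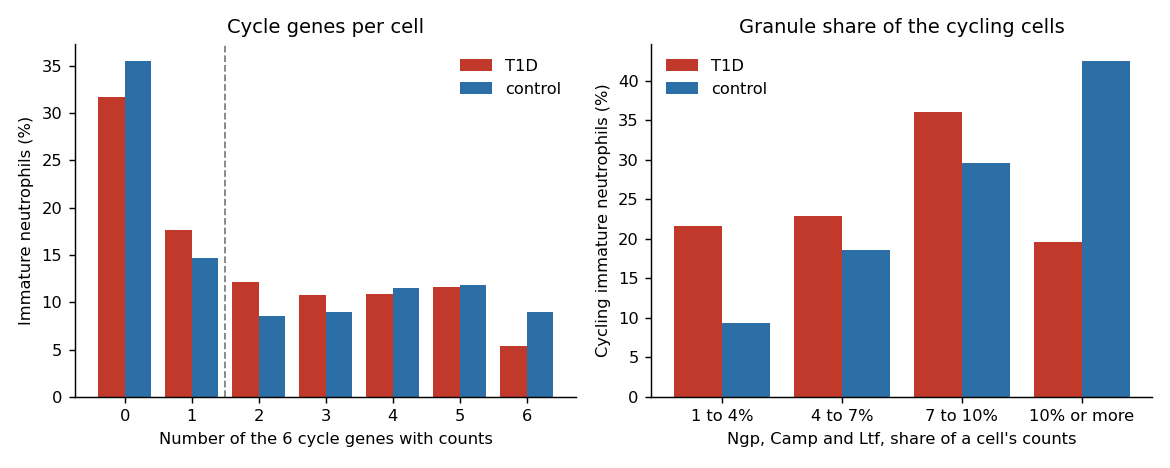
Left, immature neutrophils of each library (%) by the number of the 6 cycle genes with counts, members lying right of the dashed line; right, members (%) by the summed share of Ngp, Camp and Ltf in a cell's counts. T1D bars stand left of control bars: in the top granule bin T1D has 19.5% of its members and control 42.5%.

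The summed share of Ngp, Camp and Ltf, which the rule used at its lower end, is given here as a description. The granule share of a member had a median of 7.46% in T1D and 9.32% in control, and a 10th percentile of 2.21% in T1D and 4.25% in control. In 4 ranges of the share, 1 to 4%, 4 to 7%, 7 to 10% and 10% or more, there were 428, 453, 713 and 387 T1D members and 100, 198, 315 and 453 control members. The lowest range thus held 21.6% of T1D members and 9.38% of control members. The ranges cut a continuous measure, and 278 T1D and 126 control members lay within 0.25 percentage points of an edge.

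From the lowest to the highest range primary granule transcripts fell and secondary granule transcripts rose in both libraries. Tertiary granule and mature neutrophil genes did not rise with them, and were highest in the lowest range. They summed to 5073, 4133, 3922 and 3516 CPM over the 4 ranges in T1D, and 3949, 2726, 2966 and 2838 CPM in control. Mpo, which encodes myeloperoxidase, had 1798, 577, 136 and 25.4 CPM over the 4 ranges in T1D, and 2028, 765, 121 and 17.7 CPM in control. Elane, the neutrophil elastase gene, had 1391, 678, 203 and 75.7 CPM in T1D, and 1799, 1004, 268 and 69.4 CPM in control. Ctsg, which encodes cathepsin G, had 218, 77.8, 12.3 and 4.45 CPM in T1D, and 319, 93.7, 16.1 and 3.02 CPM in control. The steep loss of these 3 serine protease and peroxidase transcripts was thus seen in T1D and control alike. Cycle gene counts were required of every member, so their presence in all ranges follows from the rule. Prtn3 ended at 184 CPM in T1D and 150 CPM in control in the top range, from 2858 and 3634 CPM in the lowest. Cebpa, the transcription factor of early granulocyte commitment, had 28.3, 24.0, 5.6 and 3.2 CPM in T1D, and 39.9, 18.7, 5.1 and 1.3 CPM in control. Ncl, a nucleolar protein of ribosome synthesis, had 1413, 577, 364 and 285 CPM in T1D, and 1441, 640, 364 and 252 CPM in control.

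Lcn2, which encodes the iron-scavenging lipocalin-2, had 1229, 3155, 5327 and 8201 CPM over the ranges in T1D, and 1267, 3303, 6782 and 10660 CPM in control. Chil3, a chitinase-like protein, had 1703, 3865, 5655 and 7541 CPM in T1D, and 1576, 3666, 6400 and 8547 CPM in control. Both genes were close between the libraries in the lower ranges and lower in T1D in the top range. Inhba, which encodes the activin A subunit, had 69.3, 201, 301 and 335 CPM in T1D, and 36.6, 169, 294 and 316 CPM in control. The neutrophil surface protein gene Cd177 had 478, 998, 1526 and 1736 CPM in T1D, and 391, 857, 1416 and 1761 CPM in control. Orm1, Itgb2l, Fmnl2 and Zmpste24 were the other genes among the 8 with the largest rise. Cebpe, the transcription factor needed for secondary granules, had 61.5, 108, 126 and 143 CPM in T1D, and 81.4, 183, 194 and 239 CPM in control, lower in T1D in all 4 ranges. F13a1, Ccr2, Car2 and Prss34, genes of monocytes, erythroid cells and basophils, were among the 8 with the largest fall. F13a1 had 459 CPM in T1D and 236 CPM in control in the lowest range, against 25.4 and 7.33 CPM in the highest. Whether cells of other types lie in the lowest range was not tested.

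**Figure D2:**
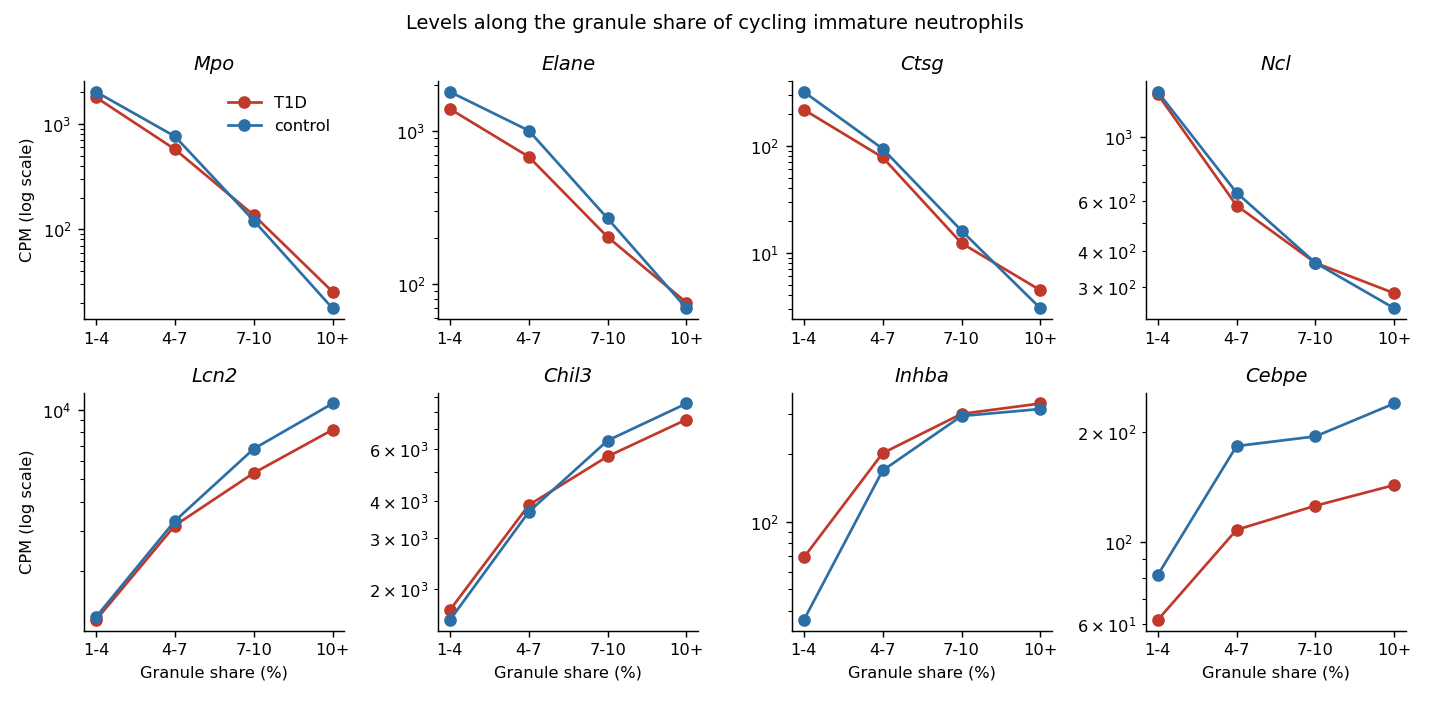
CPM on a log scale of 8 genes over the 4 ranges of the granule share (%), T1D in red and control in blue, each point the summed counts of the members of that range. Mpo, Elane, Ctsg and Ncl decline and Lcn2, Chil3, Inhba and Cebpe climb in both libraries; Cebpe is lower in T1D in every range, 143 against 239 CPM in the top range.

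The cycle itself also shifted along this line. The summed level of the S phase genes of nucleotide and DNA synthesis was 2795 CPM in the lowest and 2108 CPM in the highest range in T1D, and 2990 and 1902 CPM in control. The 41 genes of G2 and mitosis beyond the rule summed to 5700 CPM in the lowest and 7644 CPM in the highest range in T1D, and 6657 and 8212 CPM in control. Replication licensing genes, which load the helicase onto DNA before S phase, summed to 1429 CPM in the lowest and 946 CPM in the highest range in T1D, and 1782 and 855 CPM in control. Ribosome biogenesis genes summed to 4426 CPM in the lowest and 894 CPM in the highest range in T1D, and 5088 and 882 CPM in control. The mean number of cycle genes read per member was 3.40 in the lowest and 3.81 in the highest range in T1D, and 3.95 and 4.21 in control.

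Members with all 6 cycle genes were deeper cells than those with 2. Those with 2 cycle genes had a median of 2729 counts in T1D and 3874 in control, and those with all 6 had 5232 in T1D and 6353.5 in control. All 6 were read in 10.6% of T1D members and 18.0% of control members. Pcna, the replication clamp, stood at 317 CPM in T1D and 334 CPM in control in members with 2 cycle genes, and at 156 and 183 CPM in those with 6. The mitotic cyclin Ccnb1 stood at 17.4 CPM in T1D and 9.24 CPM in control with 2 cycle genes, and at 192 and 130 CPM with 6. Retnlg, a resistin-like protein of mature neutrophils, stood at 2671 CPM in T1D and 1245 CPM in control with 2 cycle genes, and at 914 and 443 CPM with 6. Rrm2, the ribonucleotide reductase subunit, did not follow Pcna. With 2 cycle genes it stood at 327 CPM in T1D and 247 CPM in control, and with 6 at 287 and 312 CPM. The number of cycle genes is part of the rule, so these values describe the members.

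Against immature neutrophils with none of the cycle genes, 539 genes were at least 2-fold higher in members in both libraries, 18.9% of 2858 genes at 50 CPM or more, and 116 were lower, 4.06%. The size rule here and below is an absolute log2 ratio of at least 1 with 5 CPM added to both sides, 50 CPM in the higher side and an interval of the ratio that does not hold 1. The rule of choice used cycle genes, so these counts describe the contrast and nothing is read from them. Pclaf, which binds the replication clamp, had 673 CPM in members and 23.2 CPM in the non-cycling cells in T1D, and 654 and 11.7 CPM in control. Ccna2, the S and G2 cyclin, had 282 and 9.08 CPM in T1D, and 248 and 5.00 CPM in control. The spindle motor Kif11, the condensin subunits Smc2 and Ncapg, the ribonucleotide reductase subunit Rrm2 and the spindle factors Nusap1, Kif15, Tpx2 and Tacc3 completed the 10 genes with the largest excess. Among list genes at 50 CPM or more, those past the size rule as higher in both libraries were 8 of 8 for replication licensing, 11 of 15 for nucleotide and DNA synthesis and 36 of 38 for G2 and mitosis. Of 12 primary granule genes 8 were higher by that rule and 0 lower.

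Of the 10 genes with the largest deficit in members, several belong to later neutrophils. Mmp8, the neutrophil collagenase, had 198 CPM in members and 1794 CPM in the non-cycling cells in T1D, and 100 and 1361 CPM in control. Mmp9, the gelatinase of tertiary granules, had 122 and 952 CPM in T1D, and 102 and 1007 CPM in control. Retnlg had 1477 and 10101 CPM in T1D, and 714 and 5998 CPM in control. Acvrl1, a receptor of the TGF-beta family, had 14.3 and 128 CPM in T1D, and 5.41 and 67.9 CPM in control. Fpr1, the formyl peptide receptor, Slfn1, Cd55, S100a6, 1700047M11Rik and Adam8 were the others of the 10. By the size rule 16 of 21 tertiary granule and mature neutrophil genes were lower in members and 0 higher. Of 21 secondary granule genes beyond the rule, 3 were lower and 1 higher. Among receptor genes 6 of 22 were lower and 0 higher, and among interferon response genes 2 of 6 were lower and 0 higher.

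Set against primary granule progenitors, 187 of 3880 genes were past the size rule as higher in members in both libraries, 4.82%, and 788 as lower, 20.3%. The granule share parted these populations by rule, so this too is a description. Inhba had 235 CPM in members and 3.29 CPM in the progenitors in T1D, and 251 and 1.57 CPM in control. Lcn2 had 4535 and 155 CPM in T1D, and 7136 and 77.7 CPM in control. S100a9, a subunit of calprotectin, had 17672 and 1116 CPM in T1D, and 22969 and 2044 CPM in control. Ifitm6, Cd177, Fpr2, Olfm4, Chil3, Itgb2l and Plbd1 were the others of the 10 with the largest excess. Among the genes lower in members were Ctsg with 70.0 and 908 CPM in T1D and 58.4 and 1193 CPM in control, and Calr, a chaperone of the endoplasmic reticulum, with 97.5 and 839 CPM in T1D and 132 and 1519 CPM in control. Ccnd2, the cyclin that answers growth factors, had 30.3 and 329 CPM in T1D, and 20.02 and 197 CPM in control. Mpo, Cst7, Gnl3, Mettl1, Dmkn, Prtn3 and Gstm1 were the rest. By the size rule 14 of 19 ribosome biogenesis genes and 13 of 21 genes of endoplasmic reticulum chaperones and the unfolded protein response were lower in members. Of 19 secondary granule genes beyond the rule 15 were higher, and of 13 primary granule genes 11 were lower. The cell cycle lists held few such genes, with 2 of 39 higher for G2 and mitosis and 3 of 18 lower for nucleotide and DNA synthesis.

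T1D members differed from control members by at least 2-fold in few genes. Of 2615 genes at 50 CPM or more in a library, 27 were past the size rule as higher in T1D, 1.03%, and 5 as lower, 0.191%. The median log2 ratio of these 2615 genes was 0.02. With size factors by the median of ratios the split was 25 higher and 9 lower, so that 73.5% of the calls were higher, against 84.4% with plain totals. Each of the 27 genes also had a log2 ratio above 0 in the non-cycling immature neutrophils, and 17 of them were past the size rule there. Thbs1 was above 0 there by only 0.03. Of the 5 lower genes, 4 were below 0 there and 3 past the rule. The 27 include the antibody genes Igha and Igkc and the hemoglobin genes Hba-a1 and Hba-a2. The same shares over all genes in the non-cycling cells are not given here, so nothing is read from these counts.

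H1f0, the replacement linker histone known from differentiated cells, had 184 CPM in T1D and 24.5 CPM in control. The log2 ratio was 2.68, and the interval of the plain ratio was 6.29 to 9.01. The log2 ratio lay between 1.90 and 3.34 over the 4 ranges of the granule share, so H1f0 was higher in T1D in every range. Non-cycling immature neutrophils had 115 CPM in T1D and 10.001 CPM in control. Cebpb, the C/EBP factor known for neutrophil production under infection, had 135 CPM in T1D and 42.4 CPM in control, 3.18-fold higher in T1D (2.76 to 3.68), with log2 ratios between 1.22 and 1.71 over the ranges. Cirbp, the cold-inducible RNA-binding protein, had 63.9 CPM in T1D and 18.4 CPM in control, 3.47-fold higher (2.80 to 4.34). Glul, glutamine synthetase, had 74.9 CPM in T1D and 22.7 CPM in control, 3.29-fold higher (2.71 to 4.03). The histone gene Hist1h2bc had 73.0 CPM in T1D and 20.02 CPM in control, 3.65-fold higher (2.97 to 4.51). All 5 genes were also higher in T1D over all kept cells, so the direction was not particular to the members. There H1f0 had 124 CPM in T1D and 30.0 CPM in control, Cebpb 226 and 71.8 CPM, and Cirbp 54.6 and 21.1 CPM. Glul had 113 and 58.0 CPM there, and Hist1h2bc 47.3 and 32.6 CPM. For H1f0, Hist1h2bc and Cirbp the size rule was met under 21 of 21 alternative settings, and for Cebpb and Glul under 20. Histone genes have near-identical copies, between which the authors' counting may split reads.

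S100a6, a calcium-binding protein of mature myeloid cells, had 865 CPM in T1D and 246 CPM in control, 3.52-fold higher (3.32 to 3.73). Fn1, which encodes fibronectin, had 121 CPM in T1D and 24.9 CPM in control. F13a1, the coagulation factor XIII subunit made by monocytes, had 177 CPM in T1D and 46.4 CPM in control. Ccr2, the chemokine receptor of monocytes, had 127 CPM in T1D and 37.5 CPM in control. Emilin2 had 57.8 CPM in T1D and 14.1 CPM in control, and Il1b, the interleukin-1 beta gene, had 88.9 and 23.6 CPM. Fn1, F13a1 and Ccr2 are themselves among the 8 monocyte markers used here, so the sum of these markers largely repeats them. Among the rest, Klf4 had 24.8 CPM in T1D and 15.3 CPM in control, Ms4a6c 12.5 and 3.97 CPM, and Ly86 6.52 and 4.87 CPM. Cx3cr1 went the other way, with 0.652 CPM in T1D and 1.44 CPM in control. Over the members the 8 monocyte markers summed to 470 CPM in T1D and 134 CPM in control, with Csf1r at 0 by rule, and 9.54% of T1D and 3.85% of control members had counts for 2 or more. Over all kept cells they summed to 1660 CPM in T1D and 1554 CPM in control. After leaving out all members with counts for F13a1, Ccr2, Fn1 or Ms4a6c the log2 ratio was 1.81 for S100a6, 1.76 for Emilin2 and 1.39 for Il1b. Free RNA was also subtracted, at the level that hemoglobin genes set, 38.0% of the profile of all kept cells in T1D and 20.8% in control. In control that level rests on few cells, since 5 cells held 75.6% of the members' hemoglobin counts, against 33.8% in T1D. The subtraction took S100a6, Fn1, F13a1, Ccr2, Emilin2 and Il1b to 0 CPM in both libraries, so that no ratio was left for them. The log2 ratio after it was 2.998 for H1f0, 1.71 for Cirbp, 1.61 for Glul and 1.07 for Cebpb.

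Transcripts of 2 other cell types rested on a handful of cells. Jchain, the joining chain of antibodies, had 181 CPM in T1D and 7.94 CPM in control, and 5 T1D cells held 91.6% of its and Igha's counts among T1D members, against 19.0% in the top 5 control cells. Without members that carried other cell types' markers Jchain had a log2 ratio of 0.69, short of the size rule, against 3.85 with them. The basophil proteases Prss34 and Mcpt8 were lower in T1D, with 25.4 CPM against 100 CPM in control for Prss34 and 17.6 CPM against 56.3 CPM for Mcpt8. Of the counts of both proteases, 5 cells held 85.2% in T1D and 97.1% in control. Without the same members Prss34 had a log2 ratio of 0.21 and Mcpt8 of 0.14. Dynll1, a dynein light chain, had 36.5 CPM in T1D and 82.4 CPM in control, 2.26-fold lower in T1D. Gng5, a G protein subunit, had 23.5 CPM in T1D and 54.8 CPM in control, 2.34-fold lower. Dynll1 met the size rule under 20 of 21 alternatives and Gng5 under 17.

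**Figure D3:**
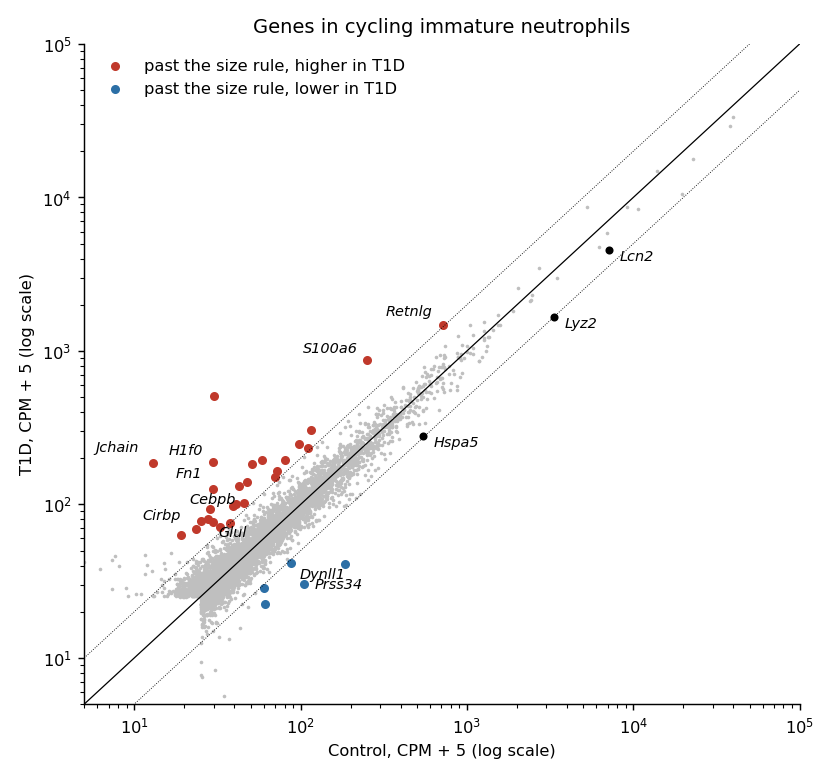
Each point is a gene at 20 CPM or more in a library, with CPM plus 5 summed over the members in T1D (vertical) and control (horizontal), both on log scales; dotted lines mark 2-fold. The 27 genes past the size rule as higher in T1D are red, the 5 lower ones blue, and Lcn2, Lyz2 and Hspa5, which lie between the lines, black.

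The gene lists were read against all 5002 genes at 20 CPM or more in a library. Of these 28.4% had an interval of the ratio above 1 and 21.7% below 1, and their median log2 ratio was 0.02. Below, higher and lower refer to this interval unless the size rule is named.

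Of 41 genes of G2 and mitosis, 3 were higher and 22 lower in T1D, with a median log2 ratio of -0.19. Cks2, a partner of the mitotic kinase, had 111 CPM in T1D and 181 CPM in control, 1.64-fold lower (1.49 to 1.79). Kif20a and Ckap2l, which act at the spindle, had 16.2 and 53.9 CPM in T1D, against 27.8 and 83.2 CPM in control. The median of the list was 0.04 after subtraction of free RNA at the hemoglobin level described above. Pttg1, the securin gene, went the other way with 22.3 CPM in T1D and 11.2 CPM in control. The condensin gene Smc4 had 952 CPM in T1D and 1085 CPM in control, while Cenpe, a kinetochore motor, had 433 and 437 CPM, with an interval that held 1. Of 13 licensing genes at 20 CPM, 1 was higher and 2 lower, with a median of -0.04 that ran between -0.17 and 0.26 over the 21 alternatives. Of 18 genes of nucleotide and DNA synthesis, 4 were higher and 4 lower, with a median of 0.10. Rrm2 had 372 CPM in T1D and 324 CPM in control, whereas Tyms, thymidylate synthase, had 44.99 and 71.8 CPM. Pcna had 260 CPM in T1D and 274 CPM in control, and Rrm1 276 and 275 CPM, both with intervals that held 1. Cyclins, inhibitors and exit genes had 6 higher and 6 lower of 24, with a median of -0.0040. Among them Cdk6, the partner of D-type cyclins, had 160 CPM in T1D and 121 CPM in control, the inhibitor Cdkn1a 93.2 and 74.5 CPM, and the inhibitor Cdkn1b 93.2 and 113 CPM.

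Secondary granule genes were lower in T1D as a group. Of 22 beyond the rule, 5 were higher and 15 lower, with a median log2 ratio of -0.23. Lcn2 was 1.57-fold lower in T1D (1.55 to 1.60). Lyz2, which encodes lysozyme, had 1667 CPM in T1D and 3318 CPM in control, 1.99-fold lower (1.95 to 2.04). Chil3 had 4778 CPM in T1D and 6248 CPM in control, Pglyrp1, a peptidoglycan-binding protein, 999 and 1293 CPM, and Wfdc21 713 and 934 CPM. Itgam, the CD11b gene, had 345 CPM in T1D and 346 CPM in control. Mmp8 and Olfm4, the olfactomedin 4 gene, were higher, with 198 CPM in T1D against 100 CPM in control and 316 CPM in T1D against 181 CPM in control. Subtraction of free RNA at the hemoglobin level took Mmp8 to 0 CPM in both libraries and left Olfm4 at a log2 ratio of 0.71. Over the ranges of the granule share Lcn2 had log2 ratios of -0.04, -0.07, -0.35 and -0.38, and Lyz2 of -0.13, -0.54, -0.77 and -0.89. The list's median was -0.12 when the 4 ranges had equal weight.

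Primary granule genes had medians of opposite sign over the pooled members and at equal weight of the ranges. Of 13 genes 7 were higher in T1D and 2 lower over the pooled members, with a median log2 ratio of 0.14, and with equal weight of the 4 ranges the median was -0.35. It was also below 0, at -0.08, with a granule share of at least 5%, and it was 0.94 among cells of 3000 to 5000 counts. Mpo had 573 CPM in T1D and 409 CPM in control over all members, a log2 ratio of 0.48, and -0.21 at equal weight. Elane had 542 CPM in T1D and 493 CPM in control, with log2 ratios of 0.14 pooled and -0.42 at equal weight. Prtn3 had 1083 CPM in T1D and 927 CPM in control, with 0.22 pooled and -0.35 at equal weight. Below a granule share of 7% the 3 genes and Ctsg were all lower in T1D, with log2 ratios between -0.56 and -0.17. Gstm1, a glutathione transferase, had 147 CPM in T1D and 83.3 CPM in control, and Plac8 had 74.5 and 124 CPM.

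**Figure D4:**
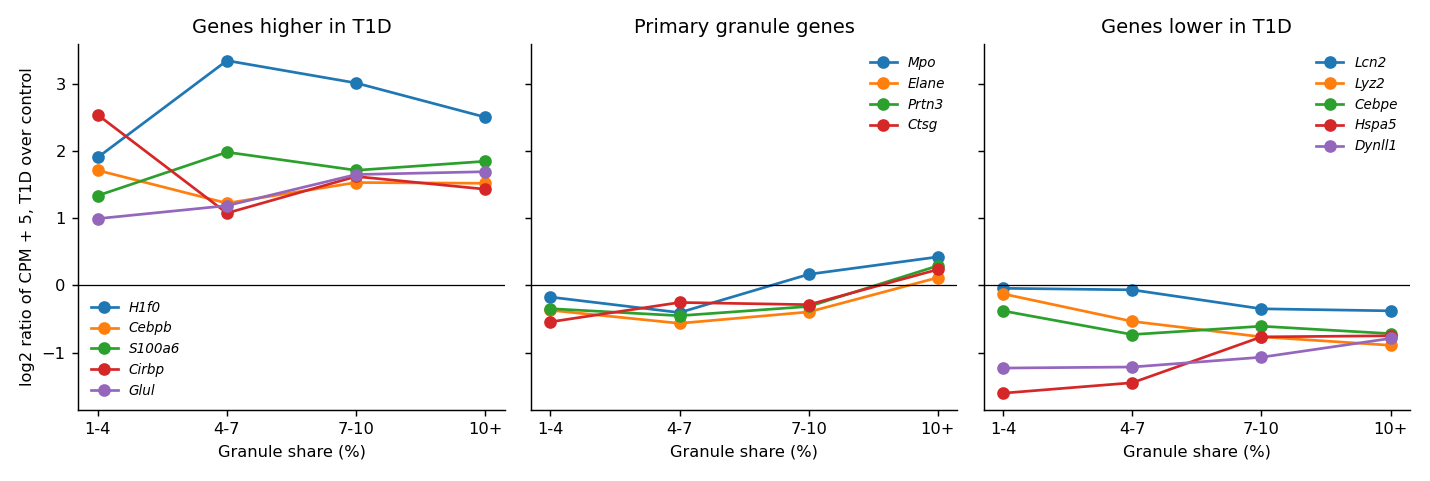
The log2 ratio of CPM plus 5, T1D over control, in the 4 ranges of the granule share (%) for 3 groups of genes; the black line marks no difference. H1f0, Cebpb, S100a6, Cirbp and Glul stay above 0 in all ranges, the primary granule genes lie below 0 under a share of 7%, and Cebpe and Dynll1 lie below 0 throughout.

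The transcription factor list held opposite moves within the C/EBP family. Of 24 factors 7 were higher and 10 lower in T1D, with a median log2 ratio of 0.0011. Cebpb was higher by the size rule, as given above. Cebpe had 111 CPM in T1D and 198 CPM in control, 1.78-fold lower (1.63 to 1.95). Cebpd had 74.98 CPM in T1D and 99.2 CPM in control, and Cebpa was low in both, at 14.2 and 9.92 CPM. Id2, an inhibitor of E proteins, had 206 CPM in T1D and 120 CPM in control, 1.72-fold higher (1.57 to 1.88). Spi1, the PU.1 gene, had 121 CPM in T1D and 157 CPM in control, and Runx1 67.8 and 81.5 CPM, both lower. Stat3, the signal transducer under the G-CSF receptor, had 184 CPM in T1D and 152 CPM in control, and the receptor's own gene Csf3r 63.8 and 81.0 CPM. For Gfi1, the repressor needed for neutrophil fate, the levels were 23.5 CPM in T1D and 20.4 CPM in control, with an interval of the ratio that held 1.

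Linker and core histones also parted. Of 21 genes of histones and chromatin compaction, 5 were higher and 12 lower in T1D, with a median log2 ratio of -0.19. In contrast to H1f0, the replication-dependent linker histones Hist1h1d and Hist1h1e were lower, with 162 and 668 CPM in T1D against 277 and 901 CPM in control. H3f3a, a histone H3.3 gene, had 93.1 CPM in T1D and 176 CPM in control, while H3f3b, the other H3.3 gene, had 1335 and 1261 CPM. The DNA-bending protein gene Hmgb2 had 2097 CPM in T1D and 2385 CPM in control, and Suz12, a polycomb subunit, 332 and 237 CPM.

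Stefin A genes, which encode cysteine protease inhibitors of neutrophils, were few, and those that reached 20 CPM were higher in T1D. Of 9 genes of the list 3 reached 20 CPM. They did so in T1D alone, so their shared direction follows from the filter and is given as description. In the lowest range of the granule share Stfa2l1 had a log2 ratio of -0.18, against 1.19 for Stfa1 and 2.32 for BC100530. Stfa1 had 41.3 CPM in T1D and 2.71 CPM in control, 15.3-fold higher (9.12 to 27.6). BC100530 had 32.9 CPM in T1D and 1.26 CPM in control, 26.0-fold higher (12.4 to 65.4). Stfa2l1 had 21.0 CPM in T1D and 5.23 CPM in control, 4.01-fold higher (2.69 to 6.18). Their levels stood under the 50 CPM of the size rule, and near-identical copies of the cluster may share reads. After subtraction of free RNA at the hemoglobin level Stfa1 had a log2 ratio of 2.57 and BC100530 of 1.95, and Stfa2l1 was at 0 CPM in both libraries.

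Tertiary granule and mature neutrophil genes were higher in T1D, 16 of 21, with 2 lower and a median log2 ratio of 0.40. Retnlg had 1477 CPM in T1D and 714 CPM in control, 2.07-fold higher (1.99 to 2.14). Cxcl2, a neutrophil chemokine, had 72.2 CPM in T1D and 24.7 CPM in control, and Ccl6 37.4 and 13.5 CPM. Hdc, which makes histamine, was lower with 167 CPM in T1D and 288 CPM in control. The 8 markers of mature neutrophils summed to 1950 CPM in T1D and 1061 CPM in control over members, with Cxcr2 at 0 by rule. Most of this sum was Retnlg. Mmp9, Il1b, Fpr1 and Slpi were also higher in T1D, while Csf3r had 63.8 CPM in T1D and 81.0 CPM in control, and Clec4d 8.48 and 10.1 CPM. Over all kept cells the 8 markers summed to 12243 CPM in T1D and 9449 CPM in control. Subtraction of free RNA at the hemoglobin level took Retnlg, Mmp9, Il1b and Fpr1 to 0 CPM in both libraries. Slpi was left at 0 CPM in T1D and 43.3 CPM in control. The list's median was then -0.45, with genes at 0 CPM in both libraries entering as 0.

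Of the 13 mitochondrially encoded genes of the list, 7 reached 20 CPM. All 7 were lower in T1D, with a median log2 ratio of -0.64. The share of all mitochondrially encoded features in a member's counts was closer, with a median of 1.64% in T1D and 1.73% in control. In non-cycling immature neutrophils that median was higher in T1D, 3.18% against 2.71% in control. The cytochrome oxidase gene mt-Co1 had 550 CPM in T1D and 862 CPM in control, 1.57-fold lower, and mt-Cytb 138 and 248 CPM. Nuclear genes of oxidative phosphorylation had a median of -0.08, with 7 higher and 12 lower of 29, and the median ran between -0.16 and 0.02 over the 21 alternatives. Among them Atp5a1 had 316 CPM in T1D and 254 CPM in control, whereas Cycs, the cytochrome c gene, had 32.9 and 57.7 CPM.

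Chaperones of the endoplasmic reticulum and genes of the unfolded protein response were lower in T1D, 11 of 19, with 1 higher and a median of -0.35. Hspa5, the main chaperone of this compartment, had 273 CPM in T1D and 541 CPM in control, 1.98-fold lower (1.87 to 2.09). It was lower in every range of the granule share, with log2 ratios of -1.60, -1.45, -0.77 and -0.75. Hsp90b1 had 407 CPM in T1D and 540 CPM in control. Among heat shock genes 3 were higher and 7 lower of 12, with a median of -0.25. Hspa8, the constitutive cytosolic chaperone, had 406 CPM in T1D and 677 CPM in control, Hsph1 4.43 and 20.02 CPM, and Hspa9, the mitochondrial one, 88.8 and 50.9 CPM. Ribosome biogenesis genes had 8 higher and 2 lower of 16, with a median of 0.18, which was -0.10 with equal weight of the granule ranges. For the nucleolar Ncl the levels were 623 CPM in T1D and 487 CPM in control. The cold-inducible pair was higher in T1D, Cirbp as given above and Rbm3 with 180 CPM against 115 CPM in control.

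**Figure D5:**
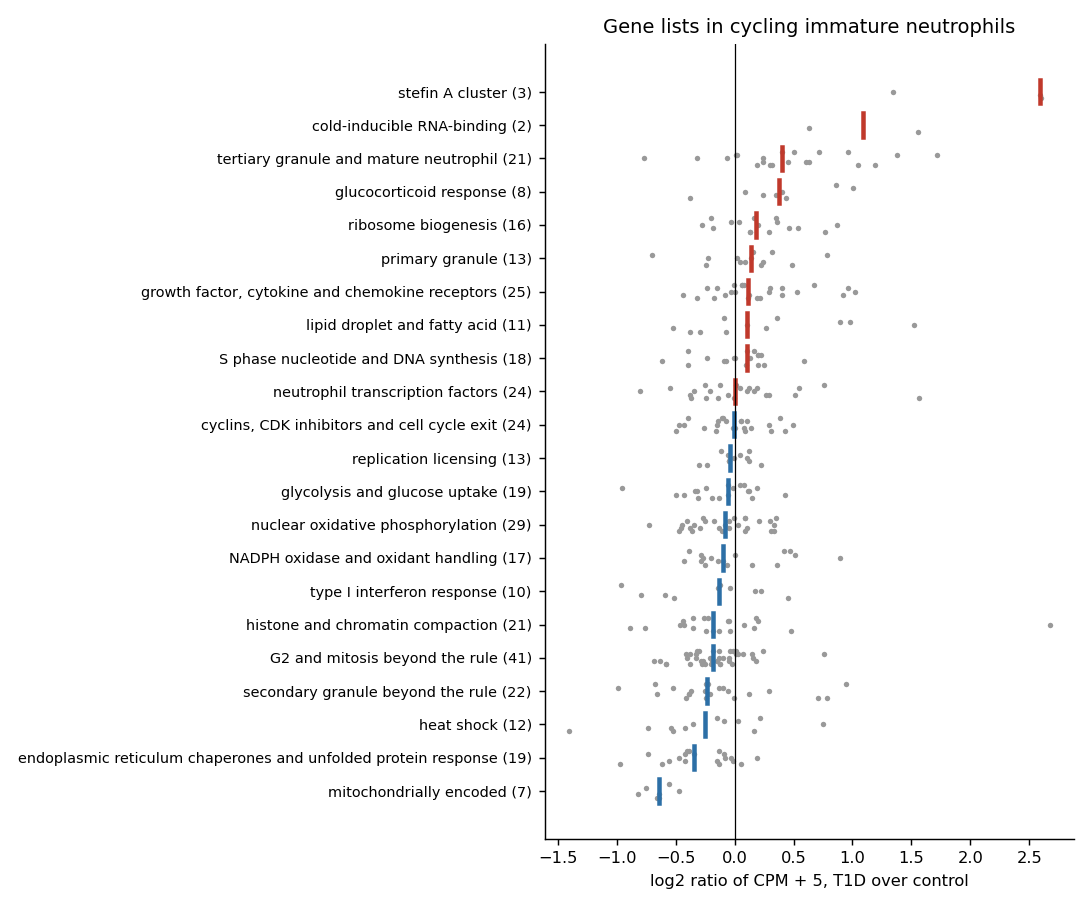
The log2 ratio of CPM plus 5, T1D over control, of each gene at 20 CPM or more (grey) and the median (bar) of the 22 lists, with the number of genes in brackets. Medians run from -0.64 for mitochondrially encoded genes to 2.59 for the stefin A cluster.

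Of 19 genes of glucose use 6 were higher and 8 lower in T1D, with a median log2 ratio of -0.06, and of 0.18 among cells of 3000 to 5000 counts. Gapdh had 106 CPM in T1D and 209 CPM in control, 1.98-fold lower (1.81 to 2.17), and the enolase gene Eno1 123 and 175 CPM, while Pkm had 529 and 499 CPM and Tkt, of the pentose phosphate pathway, 1069 and 990 CPM. Of 11 lipid genes 5 were higher and 3 lower, with a median of 0.11. Hilpda, which blocks lipid breakdown in droplets, had 31.7 CPM in T1D and 7.76 CPM in control, 4.09-fold higher (2.94 to 5.79). Cpt1a, which brings fatty acids into mitochondria, had 96.5 CPM in T1D and 46.5 CPM in control, and the droplet coat gene Plin2 129 and 66.7 CPM. G0s2, an inhibitor of lipolysis, was lower with 131 CPM in T1D and 191 CPM in control.

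Glucocorticoid response genes were higher in T1D in 6 of 8 and lower in 1, with a median log2 ratio of 0.38. Nfkbia, the NF-kB inhibitor, had 347 CPM in T1D and 189 CPM in control, 1.84-fold higher (1.71 to 1.98). Mt1, a metallothionein, had 70.9 CPM in T1D and 32.8 CPM in control and was past the size rule, and Fkbp5 had 63.8 and 47.1 CPM. Type I interferon response genes had 1 higher and 4 lower of 10, with a median of -0.13. Ifitm3 had 112 CPM in T1D and 223 CPM in control, 1.99-fold lower (1.82 to 2.17), and Ifitm6 had 940 and 686 CPM, 1.37-fold higher (1.32 to 1.43). Of 17 genes of the NADPH oxidase and oxidant handling 6 were higher and 9 lower, with a median of -0.10. Its membrane subunit Cybb had 2312 CPM in T1D and 2471 CPM in control, and the superoxide dismutase gene Sod1 63.8 and 32.1 CPM. Receptor genes had 11 higher and 4 lower of 25, with a median of 0.11, and of -0.15 after subtraction of free RNA at the hemoglobin level. Ccr1 had 230 CPM in T1D and 120 CPM in control, the decoy receptor Il1r2 147 and 72.9 CPM, and Tlr2 37.0 and 15.7 CPM, while the integrin chain Itgb2 had 176 and 239 CPM.

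Few genes had a T1D over control ratio in members that lay far from that in non-cycling immature neutrophils. Of 1764 genes at 50 CPM in both populations, the log2 ratio in members exceeded that in non-cycling cells by at least 1 for 1 gene, 0.0567%, and lay at least 1 below it for 7 genes, 0.397%. Of these 7, 4 were the hemoglobin genes Hbb-bs, Hba-a2, Hba-a1 and Hbb-bt, which lay outside the naming rule and are named after their values were seen, with differences between -1.94 and -1.44. The gene with the higher ratio was Thbs1, which encodes thrombospondin-1. Among members it had 299 CPM in T1D and 110 CPM in control, and among the non-cycling cells 1109 CPM in T1D and 1085 CPM in control. The difference of the log2 ratios was 1.37 (1.22 to 1.52). The replication-dependent linker histone Hist1h1c had 320 CPM in T1D and 352 CPM in control among members, and 207 and 104 CPM among the non-cycling cells, a difference of -1.10 (-1.33 to -0.87). For Hist1h1e the difference was -1.05 (-1.25 to -0.85), and for Hist1h1b it was -0.83 (-1.21 to -0.46). Fkbp5 differed by -1.16 (-1.70 to -0.62), with 58.8 CPM in T1D and 16.7 CPM in control in the non-cycling cells. Manf and Edem1, of the endoplasmic reticulum, differed by 0.80 (0.37 to 1.23) and 0.96 (0.62 to 1.30). Edem1 had 103 CPM in T1D and 110 CPM in control among members, against 45.05 and 98.3 CPM among the non-cycling cells. The remaining genes of the 8 with the highest difference were Slc17a9, Srp9, Fam46a, Psme2 and Cxcl2, and of the 8 with the lowest outside the hemoglobin genes Kif2a, Slc25a37, Prtn3 and Cnot6l. The intervals cover counting error only, so whether these differences would recur in other mice was not tested.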

How the data were processed

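The libraries were 1 T1D and 1 control library of marrow cells, assigned to T1D or control from the labels' disease state. The authors deposited raw counts, whole numbers for each gene in each barcode. Per the submitters' processing notes, bcl2fastq 2.19 and featureCounts were used with build mm9. Not given in the sources used here are the aligner, how cells were called and how molecular identifiers were collapsed. The tables held 24831 genes in T1D and 25395 in control, and a gene listed by a single table counted as 0 in the second. Filters of 200 genes or more and no more than 20% of counts from mitochondrially encoded genes removed 192 of 15771 T1D and 77 of 12880 control barcodes, from 52022458 and 57494166 deposited counts. Ribosomal RNA features (73) were typed from a GRCm38 annotation. No doublet caller was run. Leaving out the 5% deepest cells, and members carrying other cell types' markers, were alternatives instead.

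Counts were summed over members per library and set to CPM of that sum. The log2 ratio had 5 CPM added to both sides, and plain ratios have exact conditional binomial intervals. Shares have Clopper-Pearson intervals. No test was made, since each group is 1 library. TMM scaling came from edgeR 4.0.16. The comparison was tested on simulated data. The named genes were the 12 highest and 12 lowest past the size rule, leaving out rule, hemoglobin, antigen receptor and ribosomal RNA genes, and up to 4 by level and 4 by ratio of each list. Granule, stefin, transcription factor and cycle exit genes could all be named. Members against other populations had 10 genes each way, and the ranges of the granule share and the difference of ratios 8 each way. The members and the 22 lists were chosen with earlier results of these data known. Of 483 list genes 4 were in neither table. Promoter sequences are RefSeq's.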

Additional observations from a re-analysis of the deposited data

How the results depend on the processing

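Over 21 alternatives the T1D share of cycling immature neutrophils stayed above the control share wherever the members were chosen anew. The ratio of 1.53 was 1.28 with a granule share of at least 5%, 1.40 with at least 3 cycle genes, 1.37 in cells thinned to 1000 counts, 1.86 in cells of 3000 to 5000 counts and 1.25 without members with monocyte gene counts. The last 2 alternatives, that without the exclusion on Cxcr2 and that without barcodes found in both tables were chosen after seeing the data.

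The 27 higher genes became 50 without ribosomal RNA in the totals, and 50 again without mitochondrially encoded genes as well, 51 at a minimum of 20 CPM, 82 with no minimum and 16 without members carrying other cell types' markers. Subtracting free RNA gave 16 higher genes by the hemoglobin estimate and 15 by that from plasma cell genes. Only 10 and 6 of these were among the 27. Thinning to 1000 counts kept 15 of the 27, and leaving out members carrying other cell types' markers kept 14. The 5 lower genes became 3 at a granule share of at least 5%, 13 after thinning, 8 without ribosomal RNA with or without mitochondrially encoded genes, 8 with TMM scaling, 9 with median-of-ratios size factors, 15 at 20 CPM, 33 with no minimum, 8 with equal weight of the granule ranges, and 36 and 141 after the same subtractions. The hemoglobin level rests in control members on 5 cells with 75.6% of the counts. The plasma cell level, 46.3% in T1D and 1.75% in control, rests in T1D members on 5 cells with 91.6% of the counts. At that level log2 ratios reversed for Fn1 (-2.26), F13a1 (-3.17), S100a6 (-5.51), Emilin2 (-1.73), Il1b (-2.21), Ccr2 (-2.82), Cxcl2 (-2.20) and Retnlg (-6.91). Of the other genes the text gives as higher in T1D, Slpi (-4.59), Mmp9 (-4.30), Mmp8 (-4.18) and Il1r2 (-3.91) were also below 0 there. So were Tlr2 (-1.95), Klf4 (-1.82), Ccl6 (-1.59), Fpr1 (-1.34), Ccr1 (-1.02), Stfa2l1 (-0.96), Cebpa (-0.75) and Ifitm6 (-0.59). Fkbp5, Stat3 and Pkm came to about 0 at that level. Prss34 and Mcpt8 reversed without members carrying other markers (0.21 and 0.14) and in cells of 3000 to 5000 counts (2.41 and 2.23). Beyond what each alternative changes by construction, the cause was not tested. Cells of 3000 to 5000 counts moved the median log2 ratio of all genes to 0.11.

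No paired analysis was possible because there is 1 library per group. Counting error limits genes near 20 CPM most, and no interval covers the spread between mice.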

Other observations

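Other cell types' markers among cycling immature neutrophils differed between the libraries. The 9 B cell markers summed to 16.2 CPM in T1D and 114 CPM in control, with Cd79a at 0 by rule, and the 9 erythroid markers to 738 and 346 CPM. The 6 plasma cell markers summed to 692 CPM in T1D and 38.2 CPM in control, and the 6 basophil or mast cell markers to 49.3 and 181 CPM. T or NK cell markers summed to 136 CPM in T1D and 132 CPM in control, macrophage markers to 94.7 and 67.5 CPM, and dendritic cell markers to 55.9 and 86.6 CPM. Nkg7 alone gave 122 and 121 CPM of the T or NK cell sums, and Vcam1 85.0 and 61.5 CPM of the macrophage sums. Over all kept cells these genes were lower, Nkg7 at 89.3 CPM in T1D and 83.1 CPM in control, and Vcam1 at 55.4 and 38.3 CPM. Megakaryocyte, stem cell and stromal markers stood at 9.39, 74.1 and 16.2 CPM in T1D, against 6.67, 54.3 and 36.3 CPM in control. Beyond the values without the members that carried them, their part in the results was not tested.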
